A study of Mus musculus with 2 samples.

Results

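The 10 genes described here encode the mouse MHC class I heavy chains and the proteins that supply them with peptide. They were taken by name, and all 10 were present among the 43026 gene columns of the 2 deposited count tables of mouse testis cells. H2-K1 and H2-D1 encode the classical heavy chains, H2-T23 encodes the non-classical heavy chain Qa-1, and B2m encodes beta-2-microglobulin, the light chain of all of them. Tap1 and Tap2 form the peptide transporter of the endoplasmic reticulum, Tapbp encodes tapasin, which holds empty heavy chains at the transporter, Psmb8 and Psmb9 encode catalytic subunits of the immunoproteasome, and Nlrc5 encodes a transactivator of class I promoters. The study measured testis cells by single-cell RNA sequencing on the BD Rhapsody system, a microwell method with barcoded beads, in 1 library from mice aged 2 months (young) and 1 library from mice aged 24 months (aged). The labels give no strain, genotype, treatment or number of mice, and they call the cells stroma cells, although most of the cells carried germ cell markers. How gene expression differs between the ages is the question that the series' title sets.

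Class I molecules show peptides of cytosolic origin to CD8 T cells and serve as ligands of natural killer cell receptors. Heavy chains need beta-2-microglobulin and a peptide to reach the cell surface, so the genes of this group work as a chain from proteasome to transporter to tapasin to heavy chain. In most tissues their transcription is raised by interferon through IRF1 and STAT factors, by NF-kB, and by NLRC5, which is held at an upstream X box by RFX and CREB factors. The testis is known as an immune-privileged organ in which Leydig cells and macrophages lie outside the seminiferous tubules and later germ cells lie behind the blood-testis barrier.

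The 2 libraries held 2732 young and 5691 aged cells after filtering, with a median of 15649.5 and 11381 counts per cell, from tables of 53413783 and 66390904 counts. Cells were clustered jointly and clusters were named from marker lists. Leydig-like cells numbered 1085 young and 579 aged, macrophage-like cells 38 and 70, fibroblast-like cells 17 and 130, spermatocyte-like cells 774 and 2555, round spermatid-like cells 511 and 842, and elongating spermatid-like cells 166 and 388. In these 6 classes 9 or 10 of the 10 markers of a class were highest in that class in either library. The same markers had named the clusters, so this count is no independent check of the names. Sertoli-like cells (30, all aged) are described only in the closing section. Clusters that could not be named held 5.16% of young and 19.3% of aged cells. Levels are given as CPM, where all cells of 1 class and library are pooled and a gene is expressed per 1000000 pooled counts, and intervals are exact 95% intervals that cover counting error only. With 1 library per age no difference had a replicate check, no test was possible, and age cannot be told apart from the library. In the tables, 35 cell numbers occurred in both libraries.

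Of the 10 genes, 8 lie on chromosome 17, all but B2m and Nlrc5, and positions are those of GRCm38. Tapbp lies at chr17:33915899-33929292 on the plus strand, H2-K1 at chr17:33996017-34000347 on the minus strand, Psmb9 at chr17:34181987-34187764 on the minus strand, Tap1 at chr17:34187553-34197225, Psmb8 at chr17:34197721-34201454 and Tap2 at chr17:34203527-34216321 on the plus strand, H2-D1 at chr17:35262730-35267499 on the plus strand and H2-T23 at chr17:36029773-36032855 on the minus strand. B2m lies at chr2:122147686-122153083 and Nlrc5 at chr8:94434356-94527272, both on the plus strand. All 10 are annotated as protein-coding. H2-K1 and H2-D1 overlap no other annotated gene, but they are close copies of each other and of further class I genes, so counts can have been split or exchanged between such copies. Tap1 and Psmb9 overlap by 212 bases on opposite strands, B2m lies within the extent of Patl2 on the opposite strand, and Tapbp holds 3422 bases of Zbtb22 on its own strand. Whether counting used strand is not given in the sources used here.

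Promoter windows of RefSeq (GRCm38.p6, 250 bases before to 50 bases after the start) were found for 8 of the 10 genes, all but Tap2 and Nlrc5. The following 4 are shown because H2-K1, H2-D1 and B2m are the heavy chains and light chain with the most counts in somatic cells, and Tapbp is the gene that was about as high in spermatocyte-like as in Leydig-like cells. Capitals mark the kappaB core GGGGATTCCC of the class I enhancer, the X2 box core TGACG and the interferon-stimulated response element core GAAANNGAAA, each searched on both strands (a match on the other strand appears as its complement).
H2-K1 (chr17:34000298-34000597, minus strand): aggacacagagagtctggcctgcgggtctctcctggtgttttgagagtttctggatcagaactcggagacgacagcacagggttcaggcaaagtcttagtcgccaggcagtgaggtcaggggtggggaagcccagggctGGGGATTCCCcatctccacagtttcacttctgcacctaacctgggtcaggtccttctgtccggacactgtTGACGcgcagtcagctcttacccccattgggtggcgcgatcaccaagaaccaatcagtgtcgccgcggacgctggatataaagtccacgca
H2-D1 (chr17:35262844-35263143, plus strand): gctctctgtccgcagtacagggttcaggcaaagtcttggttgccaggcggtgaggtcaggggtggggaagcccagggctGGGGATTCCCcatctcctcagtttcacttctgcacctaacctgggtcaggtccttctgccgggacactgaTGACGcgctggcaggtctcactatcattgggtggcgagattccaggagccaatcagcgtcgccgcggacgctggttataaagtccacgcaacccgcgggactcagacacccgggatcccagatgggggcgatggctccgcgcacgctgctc
B2m (chr2:122147437-122147736, plus strand): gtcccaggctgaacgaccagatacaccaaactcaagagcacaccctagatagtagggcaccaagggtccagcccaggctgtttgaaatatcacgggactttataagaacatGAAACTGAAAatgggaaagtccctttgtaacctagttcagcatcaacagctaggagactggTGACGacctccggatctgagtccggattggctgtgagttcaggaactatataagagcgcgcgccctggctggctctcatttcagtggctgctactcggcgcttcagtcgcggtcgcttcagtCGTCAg
Tapbp (chr17:33919228-33919527, plus strand): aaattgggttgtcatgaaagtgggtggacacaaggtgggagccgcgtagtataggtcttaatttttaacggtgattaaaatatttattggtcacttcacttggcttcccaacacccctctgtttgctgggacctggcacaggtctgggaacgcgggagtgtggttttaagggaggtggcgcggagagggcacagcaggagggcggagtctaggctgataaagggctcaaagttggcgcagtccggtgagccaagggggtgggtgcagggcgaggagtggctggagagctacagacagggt
The kappaB core was present in 2 of the 8 genes with a window, H2-K1 and H2-D1, and in 0.107% of all 32851 promoter windows. The X2 core was present in 5 genes (H2-K1, H2-D1, B2m, Tap1 and Psmb9) and in 20.8% of all windows, and the windows of the divergent pair Tap1 and Psmb9 share 275 bases, so that their match is the same one. The response element core was present in B2m and H2-T23 and in 3.44% of all windows. The windows of Tapbp and Psmb8 held none of the 3 cores. A match describes letters in a window, and none of these sites was measured. Only the letters given were searched, so other forms of an element were not looked for. The lack of a response element match in H2-K1 and H2-D1 therefore does not show that they lack such an element.

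Class I transcripts were most abundant in macrophage-like cells, lower in Leydig-like and fibroblast-like cells, and lower again in the germ cell classes. H2-K1 stood at 2894 CPM (2646 to 3160) in young and 2424 CPM (2199 to 2666) in aged macrophage-like cells. This was the highest class for H2-K1 in both libraries, but the young level was 553 CPM, below the Leydig-like level, where cells under the lowest young total were left out or class I and II genes were kept out of clustering, and no aged level was obtained there. H2-T23 was likewise at 37.95 CPM in young macrophage-like cells under these alternatives. The 553 CPM, and the lowest alternative levels of H2-D1 (1155 CPM) and B2m (3240 CPM), equal those of unnamed cluster 16. That cluster held 89 young and 0 aged cells. It scored highest for macrophage (1.35, against 0.877 for B cells) and stayed unnamed because its markers lay far below those of the macrophage-like cluster. These alternatives thus put the class name on other cells that also scored highest for macrophage. The place of macrophage-like cells above Leydig-like cells for H2-K1 and H2-T23 therefore holds for the named class only. In Leydig-like cells H2-K1 stood at 746 CPM (727 to 765) in the young and 1016 CPM (979 to 1054) in the aged library. Fibroblast-like cells followed with 298 CPM (189 to 447) and 392 CPM (310.5 to 489), and the intervals of the 2 ages overlap there. The germ cell classes formed a descending series for H2-K1, with 64.9 and 85.6 CPM in spermatocyte-like, 16.8 and 14.9 in round spermatid-like and 8.40 and 10.8 in elongating spermatid-like cells of the young and aged library. The last step turned round when called doublets were kept, with H2-K1 at 23.2 and 34.8 CPM in elongating against 17.4 and 15.5 CPM in round spermatid-like cells.

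H2-D1 differed from H2-K1 in the order of its somatic classes. Its level was 4669 and 4146 CPM in macrophage-like cells, 712 CPM (536 to 926) and 879 CPM (754 to 1018) in fibroblast-like cells, and 368 CPM (355 to 382) and 554 CPM (527 to 583) in Leydig-like cells of the young and aged library. Fibroblast-like cells were thus above Leydig-like cells for H2-D1 and below them for H2-K1 in both libraries. In germ cells H2-D1 was between 2.33 and 3.36 CPM in every class and library, and its intervals overlap across the 3 germ cell classes within each library.

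B2m stood at 5859 CPM (5503 to 6231) and 4409 CPM (4103 to 4731) in macrophage-like cells of the young and aged library. Leydig-like cells had 1542 CPM (1514 to 1569) and 1795 CPM (1746 to 1846), and fibroblast-like cells had 1449 CPM (1193 to 1744) and 1852 CPM (1669 to 2049), so that these 2 classes did not differ beyond counting error for the light chain in either library. Germ cell levels of B2m lay between 6.24 CPM (aged elongating spermatid-like cells) and 15.8 CPM (young round spermatid-like cells). H2-T23 was at 220 and 143 CPM in macrophage-like and 47.4 and 34.6 CPM in Leydig-like cells. In fibroblast-like cells H2-T23 rested on 1 young count and on 26 aged counts (129 CPM, 84.3 to 189), and in germ cells on at most 9 counts per class and library.

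**Figure D1:**
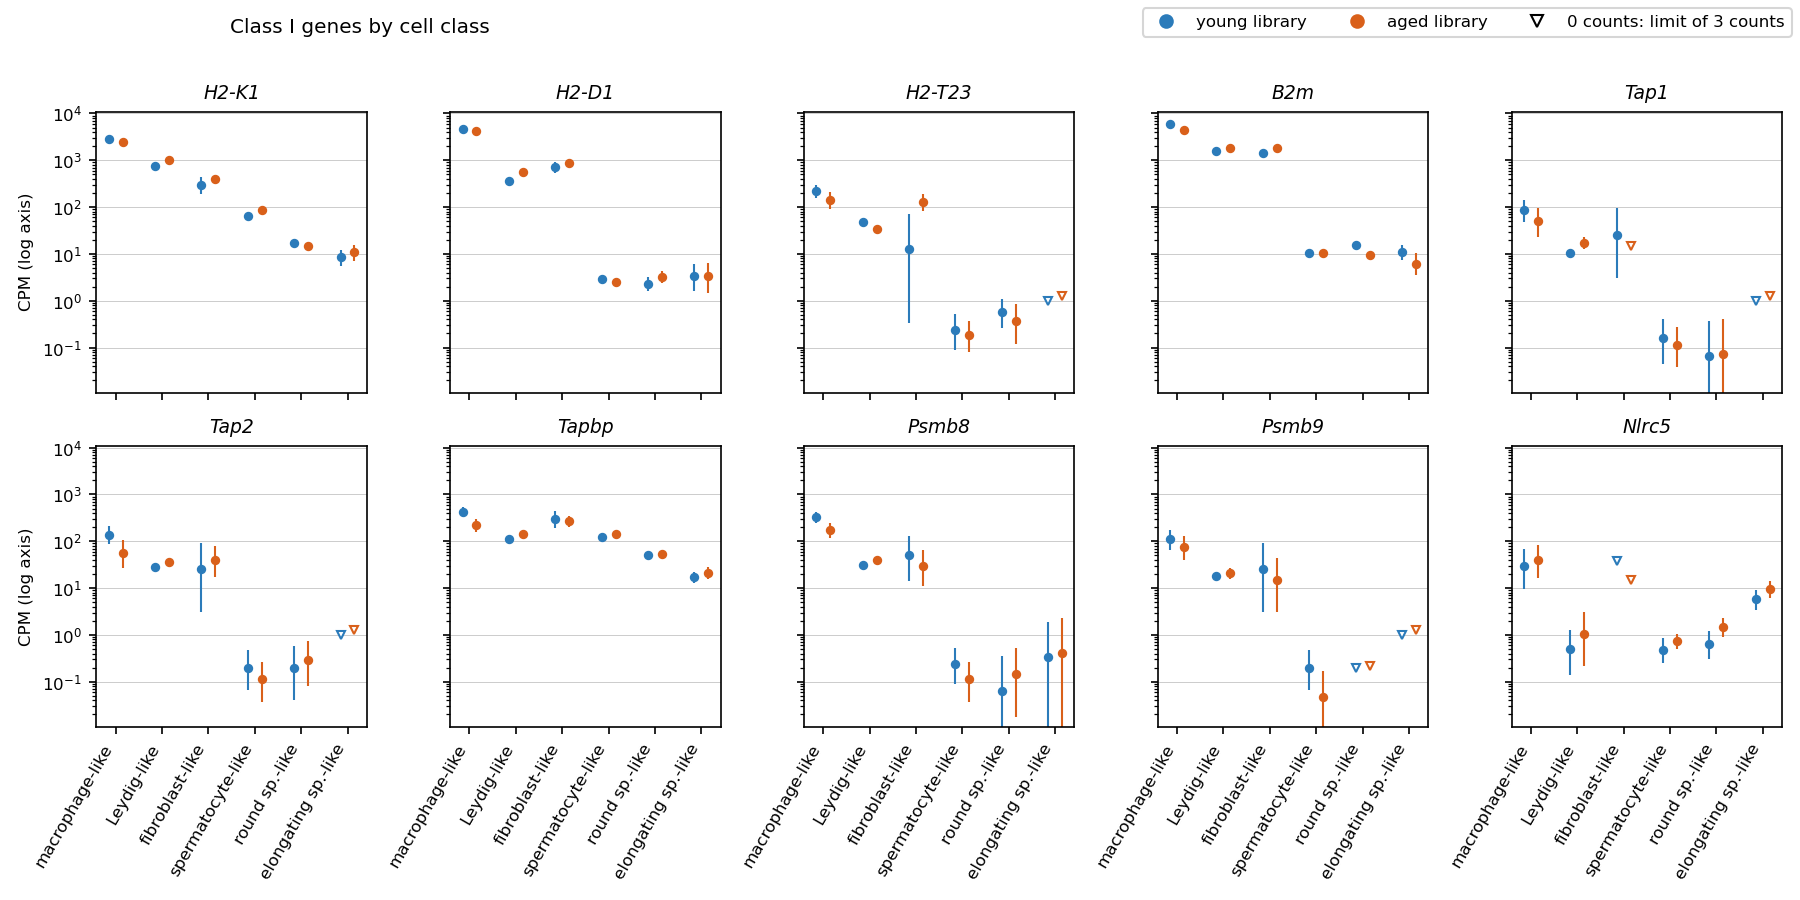
Level of each of the 10 genes (CPM, log axis) in 6 cell classes of the young and the aged library, as points with exact 95% Poisson intervals, open triangles standing for the limit that 0 counts allow (3 counts). B2m falls from 5859 and 4409 CPM in macrophage-like cells to 10.8 and 6.24 CPM in elongating spermatid-like cells, while Tapbp stays between 111 and 146 CPM in both Leydig-like and spermatocyte-like cells.

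The transporter and immunoproteasome genes were higher in macrophage-like than in Leydig-like cells, and lower than both in germ cells, at low counts. Tap1 was at 87.0 CPM (48.7 to 144) in young and 51.3 CPM (23.5 to 97.4) in aged macrophage-like cells and at 10.4 CPM (8.26 to 12.9) and 17.1 CPM (12.6 to 22.7) in Leydig-like cells. Tap2 was at 139 and 57.0 CPM in macrophage-like cells and at 28.6 and 35.3 CPM in Leydig-like cells. Psmb8 was at 331 CPM (250 to 428) and 171 CPM (115 to 244) in macrophage-like and at 30.8 and 39.95 CPM in Leydig-like cells, and Psmb9 at 110 and 74.1 CPM and at 17.7 and 21.0 CPM. Fibroblast-like cells took no fixed place, with Tap1 at 25.9 CPM on 2 young counts and 0 aged counts, and Psmb8 at 51.8 CPM on 4 young and 29.8 CPM on 6 aged counts. In the 3 germ cell classes each of these 4 genes had between 0 and 6 counts per class and library. For Psmb9 in young round spermatid-like cells, 0 counts in 15458147 allow a level of up to 0.194 CPM.

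Tapbp, the tapasin gene, was about as high in spermatocyte-like as in Leydig-like cells. It was at 429 CPM (337 to 539) and 222 CPM (158 to 304) in young and aged macrophage-like cells, 298 CPM (189 to 447) and 268 CPM (201 to 350) in fibroblast-like cells, and 111 CPM (104 to 119) and 146 CPM (132 to 161) in Leydig-like cells. Spermatocyte-like cells had 124 CPM (119 to 128) and 140 CPM (136 to 143). Tapbp holds 3422 bases of Zbtb22 on its own strand, and how reads there were counted is not given. Tapbp then stood at 51.4 and 54.3 CPM in round and at 17.1 and 21.2 CPM in elongating spermatid-like cells. Over the 13 class and library points with cells, Sertoli-like cells included, Pearson's r of log2(CPM + 1) with B2m was 0.67 for Tapbp and 0.24 for Nlrc5, against 0.93 for H2-K1, 0.99 for H2-D1 and 0.85 to 0.98 for the other 5 genes, as a description over points that share libraries.

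Nlrc5 had few counts in somatic cells, although among the named classes its CPM was highest in macrophage-like cells in both libraries. It had 4 and 3 counts in 1085 young and 579 aged Leydig-like cells, 0 in fibroblast-like cells of both libraries, and 5 and 7 counts in macrophage-like cells (29.0 CPM, 9.42 to 67.7, and 39.9 CPM, 16.1 to 82.3). In germ cells Nlrc5 was highest in the elongating spermatid-like class, with 0.482 and 0.742 CPM in spermatocyte-like, 0.647 and 1.48 CPM in round spermatid-like, and 5.71 CPM (3.33 to 9.14) and 9.56 CPM (6.06 to 14.3) in elongating spermatid-like cells. The elongating spermatid-like level was 1127% (368 to 4605) and 893% (270 to 4648) of the Leydig-like level, which rests on 4 and 3 counts. Among the germ cell clusters of a named class its highest level was in cluster 15, elongating spermatid-like cells led by transition protein and protamine genes, at 15.5 CPM (8.02 to 27.1) in the young and 18.2 CPM (10.8 to 28.8) in the aged library. These are 12 counts in 6 of 28 young cells and 18 counts in 14 of 64 aged cells, out of 17 and 23 in the whole class. Cluster 7, which holds the other elongating spermatid-like cells, stood at 2.27 CPM (0.737 to 5.30) and 3.52 CPM (1.14 to 8.22), and the intervals of spermatocyte-like and round spermatid-like cells overlap in each library. The reads behind them cannot be placed within Nlrc5 from a gene count.

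In Leydig-like cells, most class I genes stood somewhat higher in the aged library. Of the 10 genes, 9 had at least 10 counts over both libraries, the minimum for a ratio, and their median log2 ratio of aged over young was 0.38, against -0.01 over all 15287 genes that met the minimum. By size alone, 2 of the 9 were at least 1.5-fold higher (H2-D1 and Tap1) and 0 were at least 1.5-fold lower, where 11.1% of all genes were higher and 13.3% lower by that size. The members were chosen with earlier results of these data known, and a like median for a longer list of class I genes was known then.

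H2-D1 had the largest ratio among the abundant genes, 1.51 (1.41 to 1.60), just past the 1.5-fold size. The ratio was 1.36 (1.30 to 1.42) for H2-K1, 1.16 (1.13 to 1.20) for B2m, 1.31 (1.17 to 1.48) for Tapbp and 1.30 (1.03 to 1.63) for Psmb8. Tap1 had a ratio of 1.65 (1.13 to 2.38) on 82 young and 48 aged counts. The intervals of Tap2 (1.23, 0.964 to 1.57) and Psmb9 (1.19, 0.860 to 1.62) included 1. H2-T23 went the other way, with a ratio of 0.730 (0.578 to 0.916). In all, 6 of the 9 intervals lay above 1 and 1 below it, where 1735 of all 15287 genes lay above and 1706 below.

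The per-cell spread of H2-K1, which includes counting error at these depths, was wide beside the gap between libraries. How much of it is difference between cells was not tested. Per 10000 counts of a cell, H2-K1 had a median of 6.84 in young and 9.01 in aged Leydig-like cells, with the 10th and 90th percentiles of cells at 2.25 and 13.4 in the young and at 3.12 and 17.2 in the aged library. B2m had a median of 14.1 and 15.8 on the same scale. After each cell was thinned to 2000 counts, H2-K1 was detected in 1085 young Leydig-like cells at a share of 74.0% and in 528 aged ones at 82.8%, H2-D1 in 48.0% and 61.9%, and B2m in 92.4% and 95.1%. Without thinning the order for H2-K1 was the other way, 96.7% and 93.96% of cells, at a median of 6936 and 4754 counts per cell.

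The 2 ages fell into different Leydig-like clusters, and the ratios depend on it. Cluster 2 held 1043 young and 54 aged cells and cluster 4 held 42 young and 525 aged cells. Within cluster 2 the ratio was 1.21 (1.04 to 1.40) for H2-K1, 0.986 (0.777 to 1.24) for H2-D1 and 0.929 (0.827 to 1.04) for B2m, and the median log2 ratio over the 9 genes was -0.17. Tap1 had 80 young and 0 aged counts there, with a ratio of up to 1.66. Within cluster 4 the ratio was 1.18 (1.04 to 1.35) for H2-K1, 1.32 (1.10 to 1.60) for H2-D1, 1.05 (0.957 to 1.15) for B2m and 1.55 (1.06 to 2.37) for Tapbp. H2-K1 was thus the 1 gene of the 9 with an interval above 1 in both clusters. H2-K1, H2-D1, Nlrc5 and Irf1 were among the variable genes on which cells were clustered. Their levels and ratios by cluster, also in germ cells, are therefore not independent of the clustering. Macrophage markers were low in Leydig-like cells. Of the 10, 9 had a count in each library, they summed to 33.4 CPM (young) and 50.3 CPM (aged) against 41271 and 28626 CPM in macrophage-like cells, Fcgr1 was at 0 in both, and single markers reached at most 8.49 and 14.3 CPM. Markers of T or NK cells summed to 3.17 and 2.14 CPM, with Trac, Nkg7 and Cd8a at 0 in both libraries. The part of these markers in the ratios was not tested. By their spermatid transcripts, 11.2% of young and 6.42% of aged Leydig-like counts were estimated to be free RNA, and after its subtraction the median log2 ratio was 0.36.

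**Figure D2:**
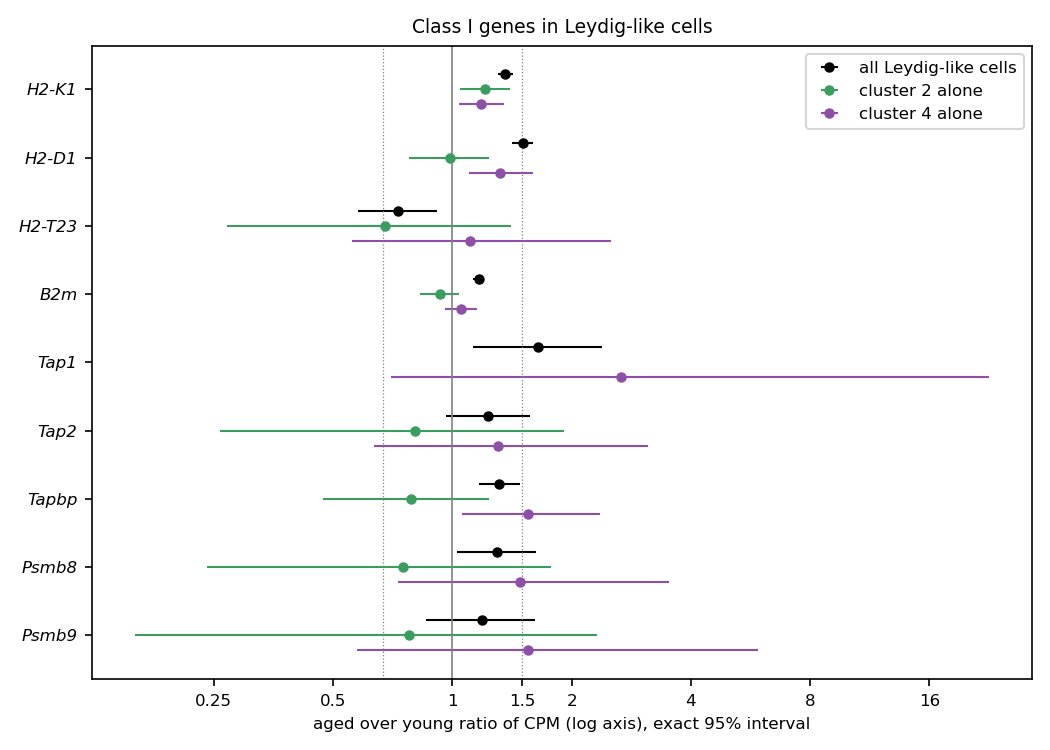
Ratio of aged over young CPM (log axis) with exact 95% intervals for 9 genes in all Leydig-like cells and in clusters 2 and 4 alone, with dotted lines at 1.5-fold. In cluster 2 the points of H2-D1 (0.986) and B2m (0.929) lie left of 1, and Tap1 has no point because it had 0 aged counts there.

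In Leydig-like cells the other loading, trimming and proteasome genes had medians near equality, and other class I genes a median above it. The counts past 1.5-fold below are to be read against the 11.1% of all genes higher and 13.3% lower. Intervals lay above 1 for 0 of 7 loading or trimming factors, 0 of 7 proteasome genes and 3 of 8 other class I genes. They lay below 1 for 2, 3 and 1 of these, where 1735 of all 15287 genes lay above and 1706 below. The other loading and trimming factors had a median log2 ratio of -0.07 over 7 genes with 0 past 1.5-fold, including the chaperones Hspa5 (1182 and 1187 CPM) and Calr (576 and 535 CPM). The other proteasome genes had a median of -0.10 over 7 genes with 0 past 1.5-fold, and Psme1, an activator subunit, stood at 347 and 324 CPM and Psme2 at 111 and 89.9 CPM. Among 8 other class I heavy chain and class I-like genes with enough counts the median was 0.29 and 2 were at least 1.5-fold higher, namely H2-Q4 with 6.59 and 14.98 CPM (ratio 2.27, 1.48 to 3.48) and Cd1d1, a lipid-presenting molecule, with 11.5 and 25.3 CPM (ratio 2.20, 1.59 to 3.03). Fcgrt, which carries immunoglobulin G and albumin, stood at 119 and 96.3 CPM.

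Of 19 regulators, 3 were at least 1.5-fold higher and 0 lower, with a median of 0.06, a share near that of all genes. Irf1, an activator of class I genes, stood at 177 CPM (168 to 187) in young and 707 CPM (677 to 739) in aged Leydig-like cells, a ratio of 3.99 (3.73 to 4.28). Irf1 was higher in the aged library in cluster 2 (177 and 310 CPM) and in cluster 4 (177 and 741 CPM) alike. Rela, an NF-kB subunit, stood at 40.02 and 70.3 CPM (ratio 1.76, 1.46 to 2.10). Irf8, a myeloid regulator, stood at 265 and 194 CPM (ratio 0.733, 0.666 to 0.806). Of class II genes, 4 of 5 with enough counts were at least 1.5-fold higher, but Cd74, the invariant chain, rested on 11 young and 36 aged counts found in 0.737% and 0.691% of cells.

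Spermatocyte-like cells carried H2-K1 with very little B2m. For every 100 counts of B2m there were 614 counts of H2-K1 (539 to 702) in young and 815 (739 to 901) in aged spermatocyte-like cells, against 48.4 (46.9 to 49.9) and 56.6 (54.0 to 59.2) in Leydig-like and 49.4 (44.3 to 55.1) and 55.0 (48.7 to 62.0) in macrophage-like cells. This sets the same pair of genes side by side across classes and does not compare their levels with each other. H2-D1 did not share the shift, with 27.0 (20.5 to 35.2) and 24.5 (19.7 to 30.2) counts per 100 of B2m in spermatocyte-like cells against 23.9 and 30.9 in Leydig-like cells. The 2 classical heavy chains therefore parted in these cells, as far as counts of close gene copies can be told apart. Over the alternatives, B2m in spermatocyte-like cells ran from 4.34 to 12.3 CPM (young) and from 7.37 to 11.3 CPM (aged). H2-D1 ran from 0.973 to 5.81 CPM and from 1.16 to 4.56 CPM. The lowest B2m levels, 4.34 and 7.37 CPM, were those after free RNA was subtracted. The size of these ratios thus depends on the processing, and the counts per 100 of B2m are given without that subtraction.

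Leydig transcripts served as the measure of free RNA in germ cells. The sum of 5 transcripts of Leydig cells (Insl3, Cyp17a1, Cyp11a1, Hsd3b6 and Star) reached 0.319% (0.304 to 0.335) of its Leydig-like level in young and 0.131% (0.122 to 0.140) in aged spermatocyte-like cells. H2-K1 reached 8.70% (8.23 to 9.19) and 8.43% (8.03 to 8.86) of its own Leydig-like level there, and Tapbp 111% (103 to 120) and 95.6% (86.5 to 106). B2m stood at 0.686% (0.605 to 0.775) and 0.585% (0.530 to 0.644), and H2-D1 at 0.775% (0.603 to 0.981) and 0.464% (0.380 to 0.563). The intervals of these 2 genes also lay above the summed measure, by a smaller margin than those of H2-K1 and Tapbp. Among the single Leydig transcripts, the young interval of Insl3 (0.391%, 0.195 to 0.704, on 11 counts) overlapped those of both genes. Star was the highest in the aged library, at 0.251% (0.220 to 0.287). Macrophage RNA was scarcer still, with Lyz2 at 0.0121% and 0.00972% of its macrophage-like level.

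**Figure D3:**
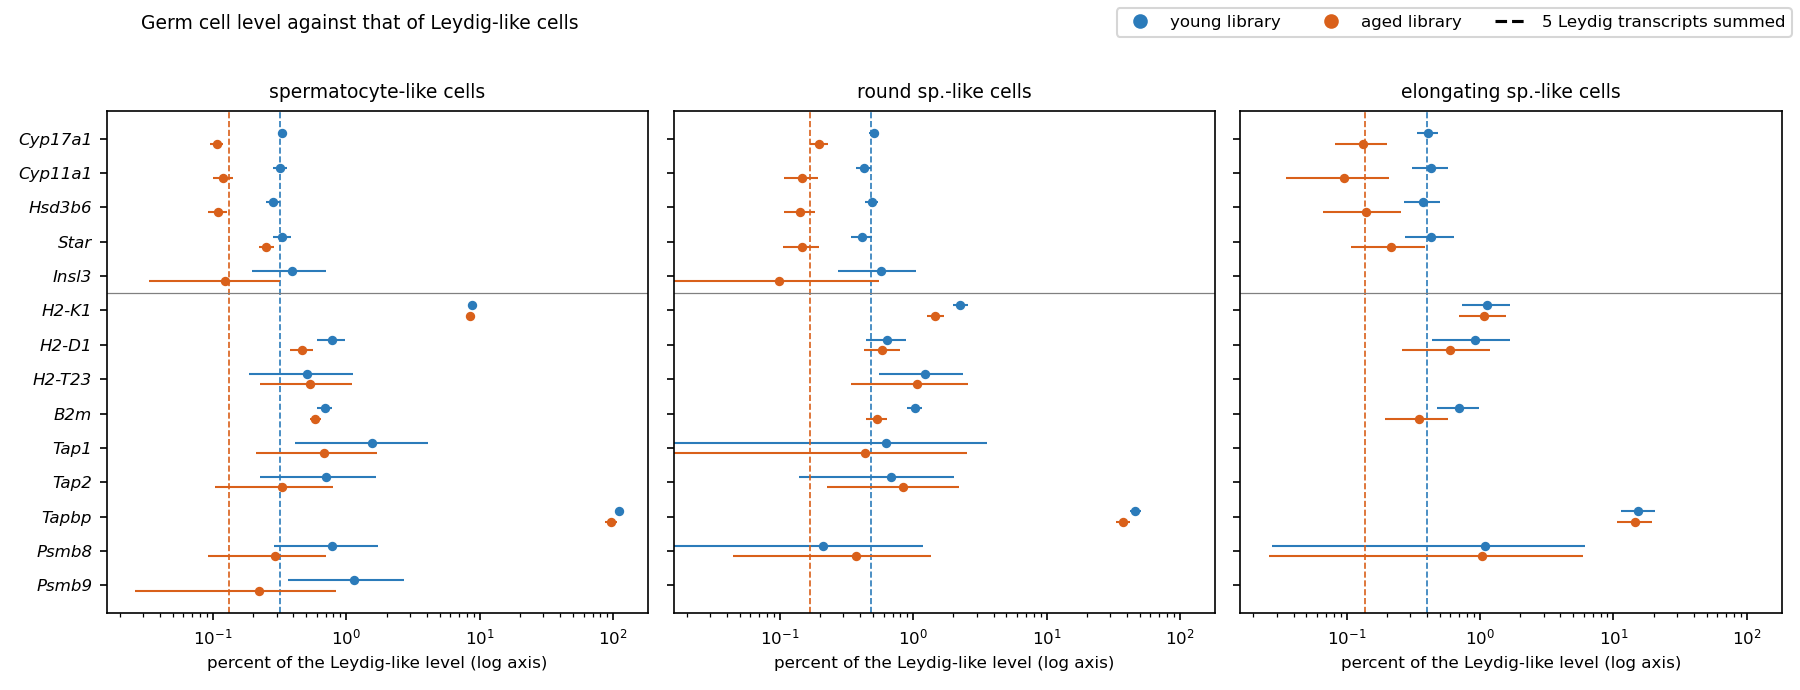
Level in 3 germ cell classes as a percent of the level in Leydig-like cells of the same library (log axis, exact 95% intervals), for 5 Leydig transcripts above the line and for 9 class I genes below it, with dashed lines at the sum of the 5 transcripts. In spermatocyte-like cells H2-K1 (8.70% and 8.43%) and Tapbp (111% and 95.6%) lie far right of the dashed lines (0.319% and 0.131%), while B2m (0.686% and 0.585%) lies nearer to them but also to their right. Genes with 0 counts have no point, and Nlrc5 is not drawn.

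Cell by cell, the germ cell classes showed few class I genes at equal depth. Thinning to 2000 counts left out cells below that depth, among them 35 aged macrophage-like cells, with 35 kept. After thinning, a median of 5 of the 10 genes was found in a macrophage-like cell, 3 in a Leydig-like cell and 0 in a spermatocyte-like cell, in both libraries. Of 774 young spermatocyte-like cells 64.6% had none of the 10, as had 61.7% of 2462 aged ones and 84.0% and 84.5% of round spermatid-like cells. H2-K1 was found in 12.4% and 17.1% of thinned spermatocyte-like cells and B2m in 2.45% and 2.07%, where Cyp17a1, a Leydig enzyme that spermatocytes should lack, was found in 6.46% and 1.34%. Without thinning, H2-K1 was found in 80.6% and 69.5% and Cyp17a1 in 64.9% and 10.6% of spermatocyte-like cells, at a median of 30416.5 and 16675 counts per cell.

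H2-K1 and Tapbp declined over the germ cell clusters, each in its own way. The clusters are set here in the order of their leading genes, from cluster 3 (Piwil1, Tex101), cluster 0 (Pou5f2) and cluster 1 (Aurka, Ccna1) through clusters 11, 6, 8 (Acrv1) and 10 to clusters 15 and 7 (protamines), an order chosen after the clusters had been seen. H2-K1 stood at 96.7, 78.4, 60.9 and 42.2 CPM in the young spermatocyte-like clusters 3, 0, 1 and 11, and at 98.9, 96.4, 67.5 and 47.7 CPM in the aged ones. In the round spermatid-like clusters 6, 8 and 10 it stood at 24.4, 11.4 and 7.48 CPM and at 24.9, 10.5 and 7.44 CPM. The series ran in the same order in both libraries, and within the round spermatid-like clusters the intervals of the 2 ages overlap. In the protamine clusters 15 and 7 it stood at 3.88 and 9.98 CPM in the young and at 4.05 and 15.5 CPM in the aged library, on 3 to 22 counts, so the series did not run on past cluster 15. Cluster 11 is a weak call, with a marker score of 0.571 for spermatocyte and 0.415 for round spermatid.

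Tapbp showed no steady decline over clusters 3, 0 and 1 and was lower from cluster 11 on. It stood at 130, 121, 131 and 99.98 CPM in young clusters 3, 0, 1 and 11 and at 153, 127, 162 and 103 CPM in the aged ones. In clusters 6, 8 and 10 it stood at 68.4, 41.7 and 26.9 CPM and at 79.6, 53.1 and 24.5 CPM. H2-D1 and B2m showed no such series, with B2m between 9.10 and 17.6 CPM in the 7 young clusters up to cluster 10 and between 7.93 and 16.2 CPM in the aged ones.

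**Figure D4:**
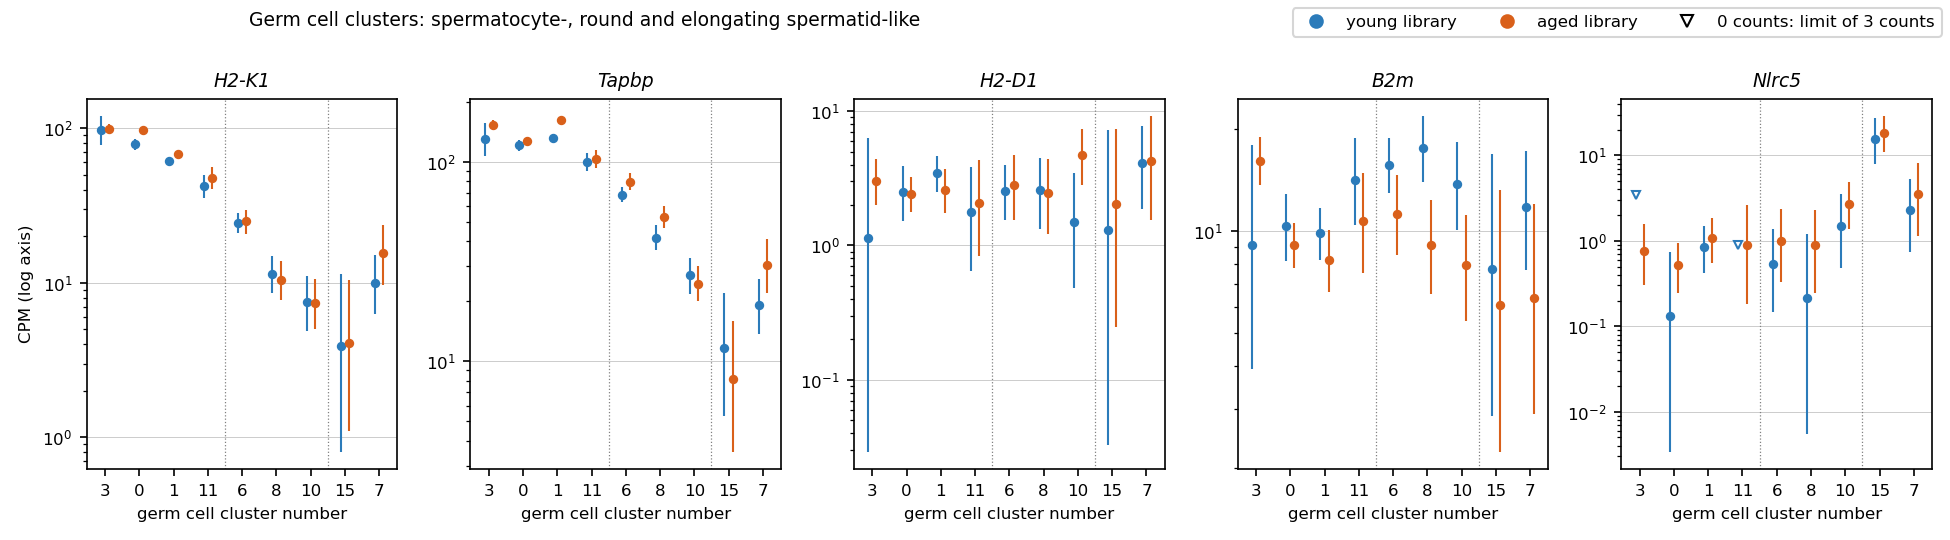
Level (CPM, log axis, exact 95% Poisson intervals) of 5 genes in the 9 germ cell clusters of the young and aged library, dotted lines parting spermatocyte-like, round and elongating spermatid-like clusters, open triangles marking the limit of 3 counts where 0 were found. H2-K1 runs down from 96.7 and 98.9 CPM in cluster 3 to 7.48 and 7.44 CPM in cluster 10, while Nlrc5 is highest in cluster 15 at 15.5 and 18.2 CPM.

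H2-K1 was also somewhat higher in aged than in young spermatocyte-like cells. In spermatocyte-like cells the ratio of aged over young was 1.32 (1.24 to 1.40) for H2-K1, 1.13 (1.08 to 1.18) for Tapbp, 0.994 (0.852 to 1.16) for B2m and 0.902 (0.664 to 1.23) for H2-D1. After free RNA was subtracted the log2 ratio of B2m was 0.76 in place of -0.01. Of 8 genes with enough counts, 0 were at least 1.5-fold higher and 2 lower, with a median log2 ratio of -0.08, where 15.3% of all genes were higher and 17.5% lower by that size. Both that were lower, Tap2 and Psmb8, rested on 10 and 11 counts in all. Nlrc5, with 12 young and 32 aged counts, had a ratio of 1.54 (0.771 to 3.28) and lay just under the 1.5-fold size once 0.5 was added to each count. Cluster makeup differed between the libraries, and within clusters 0, 1, 3 and 11 the H2-K1 ratio was 1.23 (1.12 to 1.35), 1.11 (1.002 to 1.23), 1.02 (0.818 to 1.29) and 1.13 (0.897 to 1.43), below the value over the whole class in each.

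In round spermatid-like cells B2m was lower in the aged library, with 15.8 and 9.55 CPM and a ratio of 0.603 (0.483 to 0.749). Leydig transcripts were lower with it, at 0.479% and 0.168% of their Leydig-like level, and after free RNA was subtracted the log2 ratio of B2m was -0.26 in place of -0.73. The ratio was 0.885 (0.732 to 1.07) for H2-K1, 1.06 (0.956 to 1.17) for Tapbp and 2.29 (1.02 to 5.48) for Nlrc5 on 10 young and 20 aged counts. Of 6 genes with enough counts, 1 was at least 1.5-fold higher and 2 lower, where 8.15% of all genes were higher and 8.76% lower. In elongating spermatid-like cells 1 of 5 genes, Nlrc5, was higher and 1, B2m, was lower by that size, where 15% of all genes were higher and 9.9% lower, and the interval of each of the 5 ratios included 1.

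Of the 7 other loading and trimming factors, 3 (Tapbpl, Canx and Erap1) were at least 1.5-fold lower in spermatocyte-like than in Leydig-like cells and 4 lay between, in both libraries, with median log2 differences of -0.31 (young) and -0.53 (aged). Of 7 other proteasome genes with enough counts, 6 (young) and 4 (aged) were lower, with medians of -1.54 and -1.56. Over all genes 40.6% were lower and 45.2% higher by that size in the young library, and 37.5% and 46% in the aged library, with medians of 0.20 and 0.39. These classes were clustered on gene expression, so the counts are a description. Calr stood at 596 and 586 CPM, Pdia3, a disulfide isomerase of the loading complex, at 384 and 386 CPM and Canx at 169 and 200 CPM in young and aged spermatocyte-like cells, against 576 and 535, 423 and 408, and 335 and 360 CPM in Leydig-like cells. Psme1 stood at 1.33 and 0.696 CPM against 347 and 324, Psmb10 at 2.37 and 4.22 CPM against 88.2 and 88.8, and Irf1 at 1.21 and 0.904 CPM against 177 and 707. The constitutive subunit gene Psmb6 stood at 192 and 173 CPM against 191 and 171, and Psmb7, a further constitutive subunit gene, at 152 and 139 CPM against 232 and 187. Pdia3, Canx, Psmb6, Psmb7, Psmb10 and Psme1 were named here after their values had been seen.

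Among the genes whose profile over the 13 class and library points was most like the mean of H2-K1, H2-D1 and B2m were Anxa6 (Pearson's r 0.986), Ly6e (0.983), Pnp (0.983) and Selenop (0.981), on log2(CPM + 1) and among genes at 50 CPM or more in a class. Ly6e stood at 1450 and 2176 CPM in Leydig-like and 4.42 and 3.06 CPM in spermatocyte-like cells. The points share 2 libraries and follow the split between somatic and germ cells.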

How the data were processed

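Whole-number counts per gene and cell were deposited by the authors, not normalized, in a table for each library. Software behind the aged table was BD's Rhapsody pipeline 1.7.1, per the file headers, while Cell Ranger 2.11 and the mm10 build (GRCm38) are listed per the submitters' processing notes. How cells were called, and whether counts stand for molecules or for reads, is not given in the sources used here, and the lowest cell total was 3215 (young) and 186 (aged), so depth per cell is not matched between the libraries. Genes listed for 1 library only were set to 0 for the other.

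Cells were required to reach 500 counts and 200 genes with no more than 25% of counts from mitochondrially encoded genes, and 38 young and 121 aged cells that scrublet called doublets were removed. With scanpy 1.11.5, each cell was scaled to 10000 and logged, 40 principal components were computed from 2000 variable genes, and the libraries were clustered together on 15 neighbours without batch correction (leidenalg 0.10.2, resolution 1, seed 1). A cluster took the class of the highest mean marker z-score if that was 0.5 or more with 3 markers up, and stayed unnamed where classes lay within 0.15, where a further class scored over 1.5, where its cells were shallow, or where its markers lay over 2 log2 units below another cluster of the class.

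Counts were summed per class and library. Levels carry exact Poisson, ratios and percents of a level exact conditional binomial, and shares Clopper-Pearson 95% intervals (scipy 1.17.1), without p-values. A ratio needed 10 counts over both libraries, log2 ratios had 0.5 added to each count, and 50 cells per library were needed for a comparison. Past 1.5-fold is a call by size alone. The intervals were tried on simulated Poisson counts with these depths. That simulation held no variation between cells, mice or libraries, so it checks the computation for counting error only. The 10 genes and all lists were chosen with earlier results of these data known. All 10 genes are named. Other genes named are the 2 most abundant and the 2 furthest from equality per list, the 5 most alike in profile (1 of which is not reported here), and those marked as chosen later. Alternatives changed the cell filter, doublet removal, resolution, genes clustered on, class naming, depth, scaling, free RNA, averaging, Leydig-like clusters and the count minimum, and single spermatocyte-like clusters and the split by Dazl were alternatives chosen after seeing the data.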

Additional observations from a re-analysis of the deposited data

Results flagged for a closer look

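All of these are signals in cells outside the named classes, which the comparisons do not use. Nlrc5 stood at 77.6 CPM (58.6 to 101) in unnamed cluster 9 of the aged library, 56 counts in 42 of 395 cells. The cluster has a median of 1497 counts per cell, scored 0.855 for round spermatid and 0.751 for endothelial cells, and held 3 young cells, so that no young value was given. H2-K1 (8.32 CPM), B2m (9.70 CPM) and Tapbp (26.3 CPM) had 6, 7 and 19 counts there.

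In unnamed cluster 17 of the aged library (85 cells, led by Dazl, a germ cell gene) H2-K1 stood at 1136 CPM, H2-D1 at 868 CPM, B2m at 641 CPM and Psmb8 at 62.9 CPM. The cluster scored 1.925 for spermatogonia and 1.891 for T or NK cells. Split by Dazl, a split chosen after the values had been seen, 64 cells with a Dazl count had H2-K1 at 835 CPM (715 to 970), H2-D1 at 332 CPM (258 to 421), B2m at 73.3 CPM (41.0 to 121) and Psmb8 at 1 count. They also had Stra8, a gene of meiotic entry, at 376 CPM, with Ptprc, the leukocyte antigen CD45, at 0 and Cd74 in 1 cell, and 3 of them had a count of Ptprc, Cd74, Cd3e or Trac. The other 21 cells had B2m at 4077 CPM, H2-D1 at 4107 CPM, H2-K1 at 2954 CPM and Psmb8 at 414 CPM, with Cd74 at 13797 CPM, and 17 of them had a count of Ptprc, Cd74, Cd3e or Trac. Whether free RNA or doublets have a part in these values was not tested.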

How the results depend on the processing

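No paired analysis was possible because each age has 1 library. Of single levels, 1228 stayed within their counting interval and 192 moved out of it over the alternatives, and of single ratios 325 stayed, 37 moved and 3 changed sign. In Leydig-like cells the median log2 ratio ran from -0.17 to 0.53 over 17 alternatives and was below 0 in cluster 2 alone, where H2-D1 (-0.011) and Tap1 (-2.19, from 0 aged counts) reversed and 0 members were 1.5-fold higher and 1 lower. With doublets kept, with classes from marker scores, without mitochondrial and ribosomal protein genes, with free RNA subtracted, with the mean of cells or with median-of-ratios scaling, 1 member in place of 2 was 1.5-fold higher there. B2m in elongating spermatid-like cells reversed to 0.049 with doublets kept.

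H2-K1 in spermatocyte-like cells as a percent of its Leydig-like level moved in the young library to 9.21% with a common lower cell total, 9.63% with classes from marker scores, 8.03% without mitochondrial and ribosomal protein genes and 7.81% with free RNA subtracted. In the aged library it moved to 8.98% with doublets kept, 9.25% with marker scores, 7.97% with unnamed clusters joined, 9.16% after thinning, 7.89% without mitochondrial and ribosomal protein genes, 7.90% with free RNA subtracted and 9.01% with the mean of cells. In germ cell classes, where few members pass the minimum, the number past 1.5-fold ran between 0 and 3 higher and between 0 and 3 lower in spermatocyte-like cells, between 0 and 2 both ways in round, and between 0 and 3 higher and 0 and 2 lower in elongating spermatid-like cells. Median-of-ratios scaling moved all genes by at most 0.051 (log2) in size. The elongating class could not be named with a common lower cell total, so no value was given there. Tap1, Tap2, Psmb8, Psmb9 and H2-T23 in germ cells and Nlrc5 in somatic cells rest on a few counts, so their ratios have wide intervals.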

Other observations

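Unnamed clusters 16 and 14 carried class I genes at levels of the somatic classes. Cluster 16, 89 young cells and 0 aged cells led by Fcer1g and Fcrls, scored 1.35 for macrophage and 0.877 for B cells. It had B2m at 3240 CPM, H2-D1 at 1155 CPM, H2-K1 at 553 CPM and Psmb8 at 258 CPM. H2-K1 was thus below and Psmb8 above their levels in young Leydig-like cells. Cluster 14, with markers of Leydig cells and of macrophages (48 young and 56 aged cells), had B2m at 2620 and 3147 CPM, H2-D1 at 1205 and 1941 CPM and H2-K1 at 1161 and 1596 CPM, between the levels of the Leydig-like and macrophage-like classes in each library.

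In 30 aged Sertoli-like cells, the support cells of the tubule, Tapbp stood at 425 CPM (259 to 656) on 20 counts. B2m had 2 counts (42.5 CPM, 5.14 to 153), H2-K1 had 5 and H2-D1 had 1. By their spermatid transcripts, 61.8% of the counts of these cells were estimated to be free RNA.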
